A study of Homo sapiens with 18 samples.

Results

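The genes described here are 9 genes of the NRF2 pathway, the main transcriptional defence of cells against oxidants and electrophiles: NFE2L2, KEAP1, NQO1, GCLM, GCLC, TXNRD1, SLC7A11, SRXN1 and HMOX1. They were chosen by name, and all 9 were found among 19974 protein-coding genes with a RefSeq position on chromosomes 1 to 22 and X. A549 is a human lung adenocarcinoma cell line. The assay was CUT&Tag: an antibody on chromatin tethers a transposase, which cuts and tags DNA close by. Libraries came from YTHDF1-knockout cells (YTHDF1-KO), from cells given siRNA against ARID1A (siARID1A) and from wild-type cells (WT), each with an antibody against ARID1A and an antibody against YTHDF1, in 2 replicates, which gives 12 peak lists. All 3 conditions share the A549 background. Of the 18 samples, which span these 3 conditions, the 6 made with normal IgG were not analysed here. The design text also names a joint perturbation, which is not among the samples used here. The labels do not say whether the knockout is 1 clone, nor whether replicates were separate cultures, so spreads between replicates may be technical.

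NRF2, the protein encoded by NFE2L2, is held at low levels by KEAP1, an adaptor that presents it to the CUL3 ubiquitin ligase for degradation. When KEAP1 is inactivated, NRF2 accumulates, pairs with small MAF proteins and binds antioxidant response elements near its target genes. A549 is known to carry a KEAP1 mutation and is widely used as a line with constantly active NRF2; the mutation itself was not examined here. ARID1A is a subunit of the BAF (SWI/SNF) chromatin remodelling complex, and YTHDF1 is best known as a cytoplasmic reader of N6-methyladenosine in RNA. A peak in these lists says where tagged DNA piled up, and not how much RNA or protein a gene gave. Peak lists cannot check the knockout or the knockdown.

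Each gene was examined over its RefSeq span with 10 kb added on either side, called its window. The value used throughout is the percent of the window covered by peaks of a list. A window can take in part of a neighbouring gene, as those of NFE2L2, KEAP1 and NQO1 do with HNRNPA3, S1PR5 and NFAT5. Lists differed widely in extent. The anti-ARID1A lists held between 71271 and 106882 peaks, and the anti-YTHDF1 lists between 40562 and 59632. Peaks with anti-ARID1A covered 237 ± 5.05 Mb in YTHDF1-KO, 113 ± 20.3 Mb in siARID1A and 247 ± 27.2 Mb in WT cells (SD, n = 2 each). With anti-YTHDF1 they covered 59.4 ± 2.25 Mb in YTHDF1-KO, 79.6 ± 2.94 Mb in siARID1A and 69.5 ± 28.4 Mb in WT cells (SD, n = 2 each). Mitochondrial peaks held 47.2% of the listed signal in siARID1A anti-ARID1A libraries, against 18.7% in WT. Chromosome 2 held 5.14% of the covered length in YTHDF1-KO anti-ARID1A lists, against 8.11% in WT, and 4.67% in YTHDF1-KO anti-YTHDF1 lists, against 7.25% in WT. The part of these differences in the results below was not tested. Values scaled to them are given for some results. No 2 lists were identical. Windows of 6 epithelial or lung marker genes, such as KRT8, EPCAM and FOXA1, held peaks in all 6 anti-ARID1A libraries. Windows of markers of other cell types did so too for PECAM1, CDH5 and MYH11, while PTPRC had a peak in 2 and CD3E in 4 of them, so presence of a peak did not separate cell types.

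Start regions of several members carried peaks in most of the lists, and a few sequences show what lies under them. The 250 bases upstream of 4 RefSeq starts in build GRCh38.p14 are given 5′ to 3′ on the strand of the gene. For NQO1 (chr16:69726561-69726810, minus strand), capitals mark the 5 bases that hold the peak summits of 8 libraries. For GCLM (chr1:93909431-93909680, minus strand) and for the first (chr12:104215529-104215778, plus strand) and the second (chr12:104286782-104287031, plus strand) listed start of TXNRD1, capitals mark matches to the core of the antioxidant response element.
NQO1: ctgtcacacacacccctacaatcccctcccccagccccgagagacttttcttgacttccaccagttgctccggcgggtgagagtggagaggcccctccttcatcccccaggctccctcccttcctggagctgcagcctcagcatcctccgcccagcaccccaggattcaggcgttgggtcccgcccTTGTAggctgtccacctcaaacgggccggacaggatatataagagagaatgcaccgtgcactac
GCLM: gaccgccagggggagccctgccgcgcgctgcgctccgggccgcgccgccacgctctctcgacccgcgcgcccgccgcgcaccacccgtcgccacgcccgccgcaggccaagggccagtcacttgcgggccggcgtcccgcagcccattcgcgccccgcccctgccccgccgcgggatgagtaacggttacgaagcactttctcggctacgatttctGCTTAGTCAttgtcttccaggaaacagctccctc
TXNRD1 first start: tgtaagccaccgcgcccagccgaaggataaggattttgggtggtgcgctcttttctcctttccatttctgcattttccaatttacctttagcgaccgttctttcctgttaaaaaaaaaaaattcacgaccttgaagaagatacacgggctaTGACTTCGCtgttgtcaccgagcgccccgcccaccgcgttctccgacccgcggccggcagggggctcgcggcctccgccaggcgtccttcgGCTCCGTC
TXNRD1 second start: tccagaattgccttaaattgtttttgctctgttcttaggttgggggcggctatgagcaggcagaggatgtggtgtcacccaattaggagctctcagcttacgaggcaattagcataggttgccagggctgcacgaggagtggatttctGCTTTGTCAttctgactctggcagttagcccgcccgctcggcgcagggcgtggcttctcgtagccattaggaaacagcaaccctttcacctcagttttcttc

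The motif searched was TGACNNNGC on both strands, in windows of 250 bases before to 50 bases after each start. It was found in 13.3% of 35116 RefSeq promoters. Among the 10 promoter entries that matched 7 of the members, 4 held it. In GCLM the match TGACTAAGC lay 34 to 26 bases upstream of the start, on the strand opposite to the one printed. TXNRD1 had TGACTTCGC 99 to 91 bases upstream of its first start, and a match on the opposite strand that runs into the start base, of which the capitals show the part before the start. Its second start had TGACAAAGC 102 to 94 bases upstream, again on the opposite strand. The fourth entry was the second listed start of KEAP1, with TGACACGGC and TGACTAAGC at 54 and 31 bases upstream. The AP-1 motif TGANTCA, which can share letters with TGACNNNGC, was in 7.71% of promoters and in none of these 10. A match is a description of letters only, and these windows leave out distal sites.

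**Figure D1:**
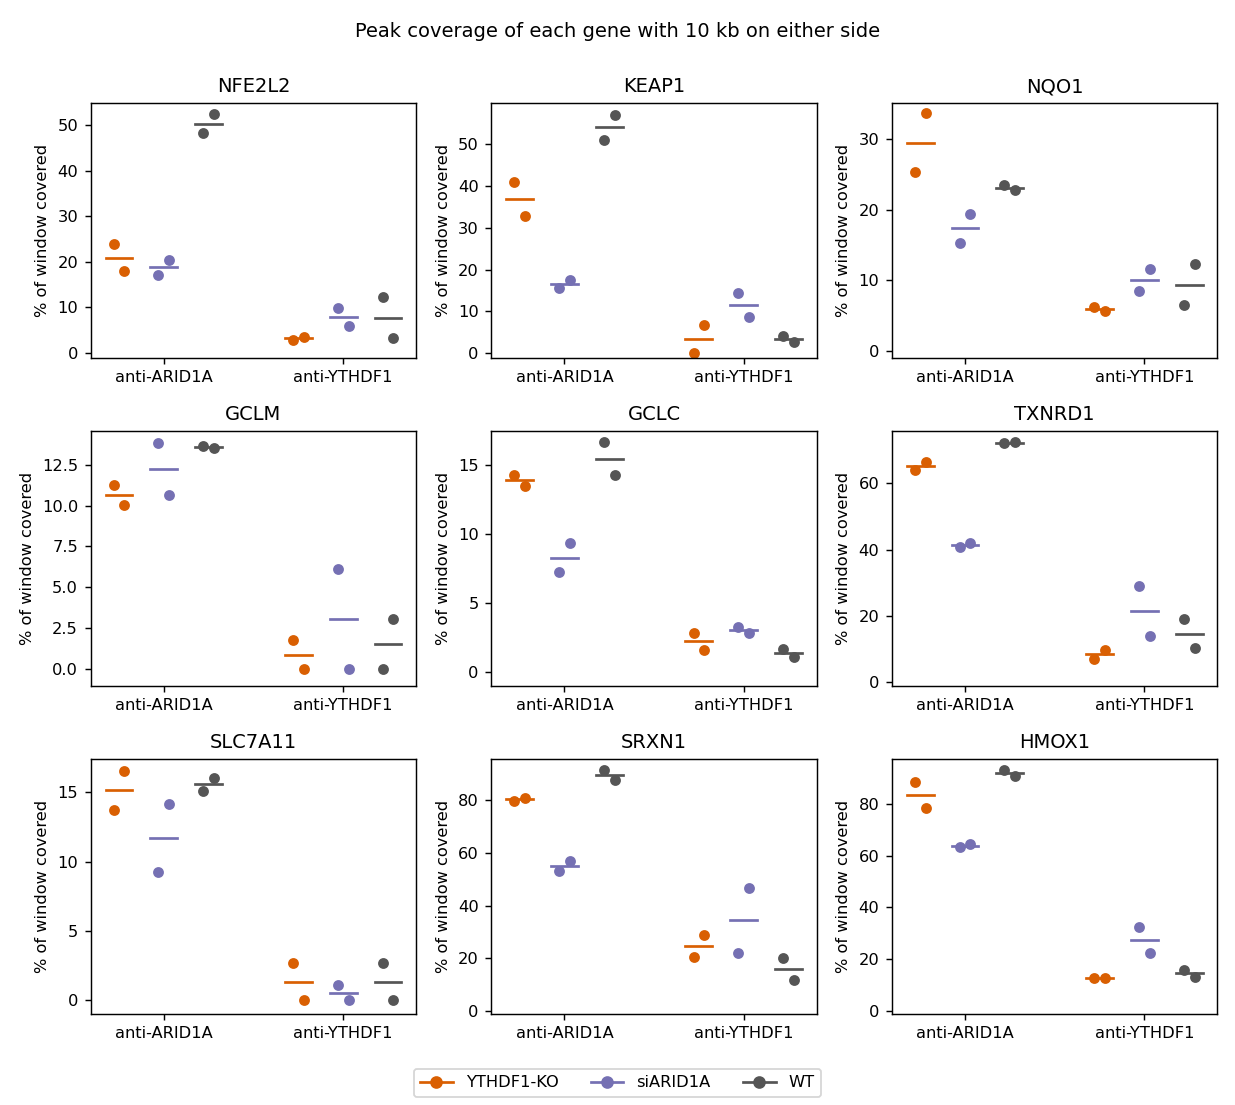
Percent of each gene window covered by peaks (vertical axis) in each of 12 libraries (points), with the mean of 2 libraries as a line, for YTHDF1-KO, siARID1A and WT cells by antibody. In each of the 9 genes all 6 anti-ARID1A libraries lie above all 6 anti-YTHDF1 libraries.

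All 9 members were covered more with anti-ARID1A than with anti-YTHDF1, and in none did the 6 libraries of 1 antibody overlap the 6 of the other. Adjusted p was 0.00918 for each of the 9 genes (two-sided exact permutation test, 6 against 6, Benjamini-Hochberg over all 19974 genes); the raw p of 0.00216 is the smallest the design can give. This direction was called for 62.3% of all genes, so the count of members is to be read against that share. The median difference over the members was 23.7 percentage points, over 48 other pathway genes 20.3 and over all genes 6.80. The antibodies' lists also differ in extent. When each value was divided by the percent of the genome that its own list covers, a ratio called relative coverage below, 2 of the 9 members, GCLC and SLC7A11, stayed higher with anti-ARID1A at adjusted p 0.0278 (exact permutation test), against 6.49% of all genes. On that scale NQO1 averaged 3.76 ± 0.902 with anti-ARID1A and 3.88 ± 1.91 with anti-YTHDF1 (SD over the 3 conditions, n = 6 each). The ratio has a lower ceiling in the larger anti-ARID1A lists, because a window cannot be covered beyond its full length.

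Levels differed widely among the members, and the percent of a window is a value per length. The SDs in this paragraph run over the 3 conditions, so they hold differences between conditions as well as between replicates. With anti-ARID1A the order, as mean ± SD over 6 libraries, was HMOX1 at 79.8 ± 13.4%, SRXN1 at 75.1 ± 16.1%, TXNRD1 at 59.6 ± 14.4%, KEAP1 at 35.7 ± 17.1%, NFE2L2 at 30.02 ± 15.9%, NQO1 at 23.3 ± 6.20%, SLC7A11 at 14.1 ± 2.64%, GCLC at 12.5 ± 3.53% and GCLM at 12.2 ± 1.70%. Each gene's range overlapped that of its neighbour in this order. With anti-YTHDF1 the same 3 genes led, with SRXN1 at 25.1 ± 11.9%, HMOX1 at 18.3 ± 7.88% and TXNRD1 at 14.9 ± 8.10%, then NQO1 at 8.43 ± 2.90%, NFE2L2 at 6.35 ± 3.89% and KEAP1 at 6.13 ± 5.10%. GCLC at 2.20 ± 0.874%, GCLM at 1.83 ± 2.45% and SLC7A11 at 1.06 ± 1.299% closed it, and neighbours again overlapped. The median gene of all 19974 stood at 10.1% with anti-ARID1A and 2.78% with anti-YTHDF1.

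Presence of a peak in the window separated the antibodies less. Windows of NFE2L2, NQO1, GCLC, TXNRD1, SRXN1 and HMOX1 held a peak in all 12 libraries. KEAP1 held one in 6 anti-ARID1A and 5 anti-YTHDF1 libraries, and GCLM and SLC7A11 in 6 and 3 each. Fisher's exact test called 0 members and 0% of all genes after adjustment, with a smallest adjusted p of 0.352. At an unadjusted p of 0.05 or less it named 591 of 19974 genes and 0 of the 9 members.

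NFE2L2, which encodes NRF2 itself, lies at chr2:177230303-177264727 on the minus strand. With anti-ARID1A its window was covered to 23.9% and 18.02% in the YTHDF1-KO libraries, 17.2% and 20.4% in the siARID1A libraries and 48.3% and 52.3% in the WT libraries. The libraries of both perturbed conditions lay far below both WT libraries and overlapped each other. The mean difference was -29.3 percentage points for YTHDF1-KO and -31.5 for siARID1A against WT. With 2 libraries against 2 the smallest two-sided p of an exact permutation test is 0.333, so no condition difference here can pass a test. With anti-YTHDF1 the values were 2.97% and 3.61% in YTHDF1-KO, 9.97% and 6.02% in siARID1A and 12.2% and 3.34% in WT cells, and conditions overlapped WT.

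Coverage of other genes on chromosome 2 was also lower in YTHDF1-KO cells. Of 1254 genes on chromosome 2, 782, or 62.4%, were lower in both YTHDF1-KO anti-ARID1A libraries than in both WT ones, against 19.9% of all genes. Divided by the percent of chromosome 2 that the same list covers, NFE2L2 stood at 4.70 and 3.61 in YTHDF1-KO, 5.72 and 5.10 in siARID1A and 6.41 and 5.80 in WT cells with anti-ARID1A. On that scale both perturbed conditions still lay below WT without overlap, with mean differences of -1.94 for YTHDF1-KO and -0.69 for siARID1A.

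The start of NFE2L2 kept its peak in the perturbed cells. A peak covered the annotated start in all 6 anti-ARID1A libraries, ranked at percentiles 85.5 to 96.4 of total signal within its own list. These percentiles are the authors' signal ranked within a list and were not compared between lists. That peak was 2546 and 2391 bp wide in YTHDF1-KO, 2546 and 3324 bp in siARID1A and 6437 and 4741 bp in WT cells. In 4 of the anti-ARID1A libraries, from all 3 conditions, its summit lay within 18 to 24 bp upstream of the start. Summits also recurred 11.7 to 12.4 kb into the gene, in 4 anti-ARID1A and 2 anti-YTHDF1 libraries. A further recurrent site lay 19.5 to 19.6 kb into the gene, with summits in 4 anti-ARID1A and no anti-YTHDF1 libraries. A peak of 1 anti-YTHDF1 library, YTHDF1-KO replicate 2, did cover that site.

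KEAP1, the sensor that marks NRF2 for degradation, lies at chr19:10486125-10503356 on the minus strand. With anti-ARID1A its window was covered to 41.0% and 32.9% in YTHDF1-KO, 15.5% and 17.4% in siARID1A and 50.9% and 56.8% in WT libraries. The 3 conditions did not overlap, with siARID1A lowest and WT highest. With anti-YTHDF1 the coverage was 0% and 6.69% in YTHDF1-KO, 14.5% and 8.71% in siARID1A and 4.14% and 2.77% in WT libraries. There siARID1A lay above WT, and 1 YTHDF1-KO library had no peak in the window at all. Summits recurred 540 to 1183 bp into the gene in 8 libraries, around the second listed start that carries the 2 motif matches, and 2.36 to 2.43 kb upstream of the first start in 5 anti-ARID1A libraries and no anti-YTHDF1 library.

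NQO1 encodes a quinone reductase that is a standard readout of NRF2 activity, and lies at chr16:69709401-69726560 on the minus strand. Its anti-ARID1A coverage was 25.3% and 33.7% in YTHDF1-KO, 15.3% and 19.4% in siARID1A and 23.5% and 22.8% in WT libraries. It was the only one of the 9 whose YTHDF1-KO libraries both exceeded WT with this antibody. With anti-YTHDF1 it had 6.14% and 5.57% in YTHDF1-KO, 8.46% and 11.6% in siARID1A and 6.50% and 12.3% in WT libraries, and the YTHDF1-KO pair lay just below WT.

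Of the 9 genes, NQO1 had the summit that the most libraries shared within 10 bp. In 8 libraries, 4 of each antibody and from all 3 conditions, the summit fell 60 to 64 bp upstream of the start, at chr16:69726620-69726624. These are the capitals in the sequence above. A peak covered the start in 11 libraries, ranked between percentiles 86.0 and 97.5 of its list. The exception was YTHDF1-KO anti-YTHDF1 replicate 1, whose strongest peak in the window lay 13.9 kb into the gene. Another site, 2.37 to 2.79 kb into NQO1, had summits in 4 anti-ARID1A and 2 anti-YTHDF1 libraries. A divergent transcript, NQO1-DT, has its start at 69726727, inside the same peaks, so the peak cannot be assigned to one of the transcripts.

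**Figure D2:**
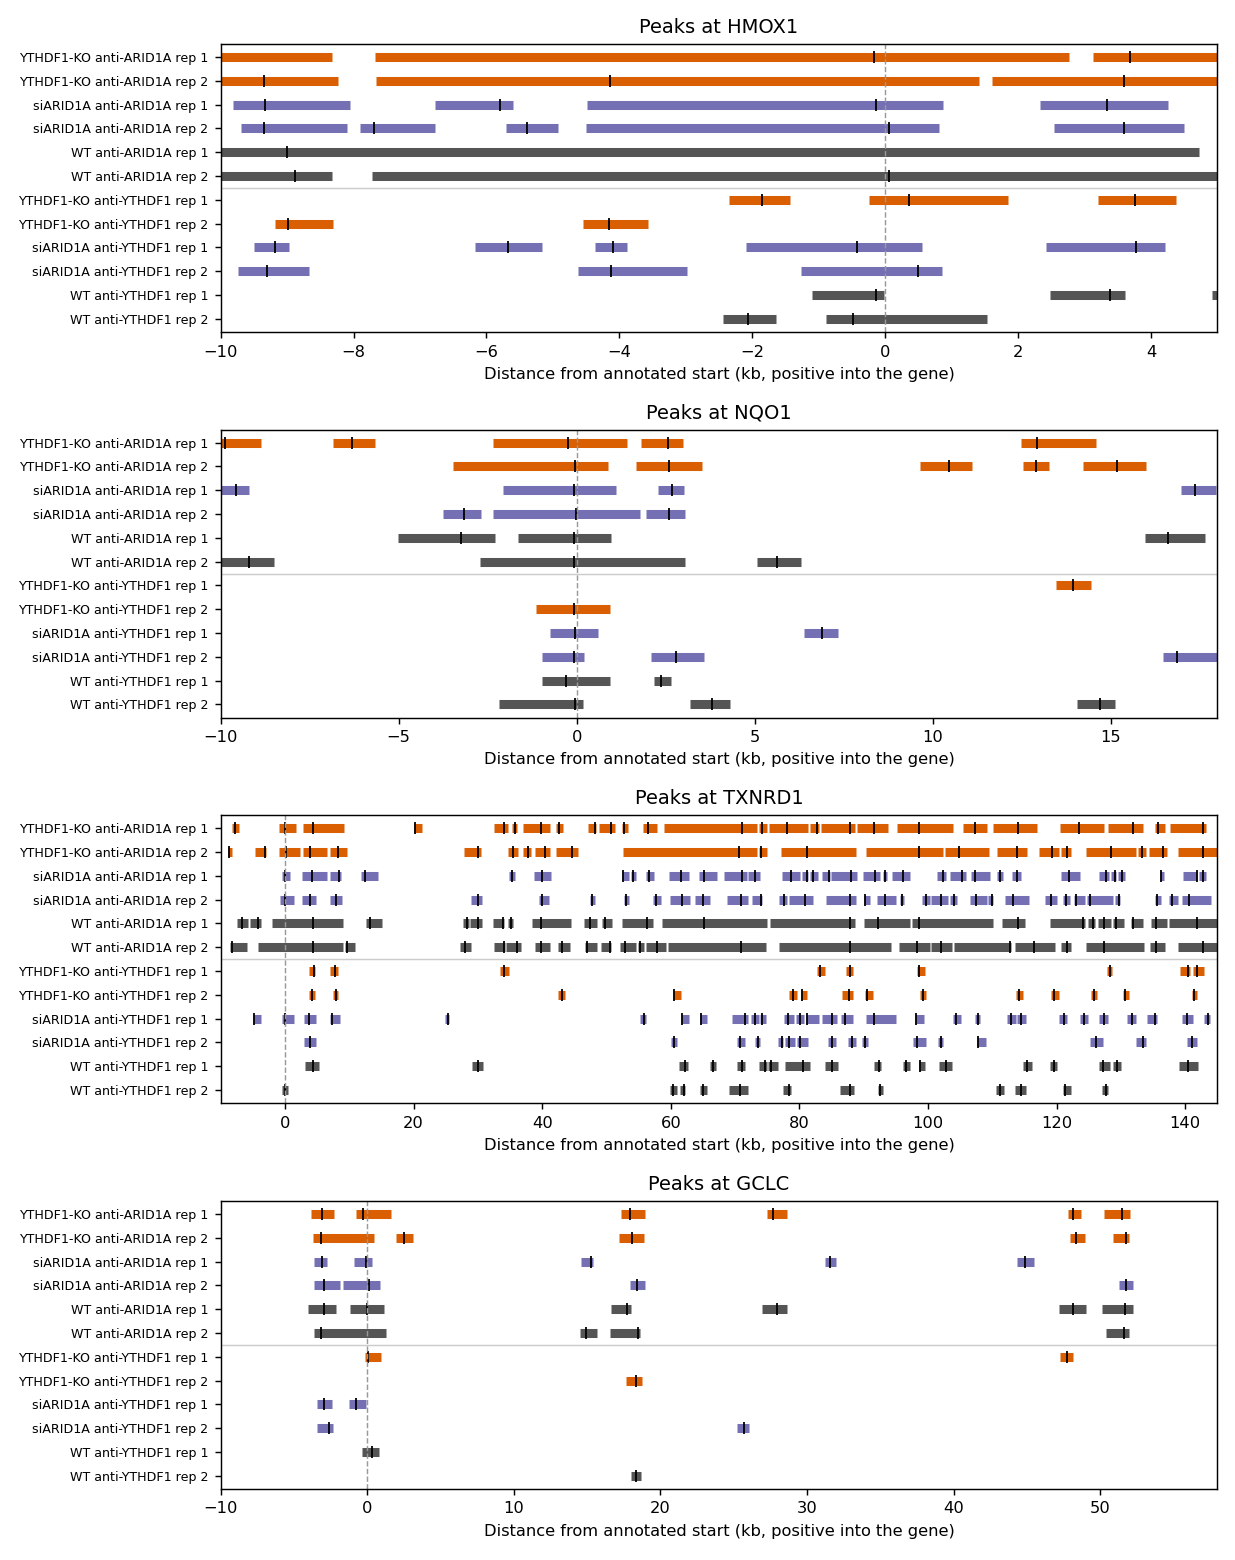
Peaks (bars) and their summits (black ticks) in each library by distance from the annotated start, in kb, at HMOX1, NQO1, TXNRD1 and GCLC, with YTHDF1-KO in orange, siARID1A in purple and WT in grey. NQO1 has a peak over its start in 11 of 12 libraries, and HMOX1 is merged into peaks of up to 19880 bp in WT anti-ARID1A libraries; windows are cut at the axis limits.

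SLC7A11, GCLC and GCLM, which serve glutathione synthesis, had the lowest mean percent of the window covered among the 9, with both antibodies. Their windows were 98.3, 67.8 and 44.2 kb long, against 37.2 kb for NQO1, so a lower percent is not a shorter covered length. SLC7A11, the transport subunit of the cystine/glutamate antiporter, had 13.7% and 16.6% in YTHDF1-KO, 9.24% and 14.2% in siARID1A and 15.1% and 16.1% in WT libraries with anti-ARID1A. Only the siARID1A pair lay below WT, and with lists cut to equal length its mean difference turned to 0.32. With anti-YTHDF1 it had 2.66% and 0% in YTHDF1-KO, 1.06% and 0% in siARID1A and 2.65% and 0% in WT libraries, so 1 library of each condition had no peak. The SLC7A11 start was covered in 6 anti-ARID1A libraries and in 0 anti-YTHDF1 libraries, the clearest split of any start among the 9 genes. That start is not in the promoter set used for the test across genes, so the split is a description.

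GCLC encodes the catalytic subunit of glutamate-cysteine ligase, the rate-limiting enzyme of glutathione synthesis. With anti-ARID1A it had 14.3% and 13.5% in YTHDF1-KO, 7.21% and 9.29% in siARID1A and 16.6% and 14.2% in WT libraries. The siARID1A pair was below WT, while YTHDF1-KO overlapped it. With anti-YTHDF1 it had 2.83% and 1.61% in YTHDF1-KO, 3.24% and 2.82% in siARID1A and 1.65% and 1.06% in WT libraries, with siARID1A above WT; over the gene body alone the mean difference turned to -0.73. A distal response element upstream of GCLC is known from reporter work. In these lists a site 2.92 to 3.15 kb upstream of the start had summits in 7 libraries, of which 6 were anti-ARID1A and 1 was anti-YTHDF1, at percentiles 70.1 to 93.9 of their lists.

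GCLM, the modifier subunit of the same enzyme, had 11.3% and 10.0% in YTHDF1-KO, 13.8% and 10.6% in siARID1A and 13.6% and 13.5% in WT libraries with anti-ARID1A. YTHDF1-KO was lower than WT by 2.93 percentage points (difference -2.93), and siARID1A overlapped WT. Over the gene body alone the YTHDF1-KO difference turned to 1.08. With anti-YTHDF1 it had 1.80% and 0% in YTHDF1-KO, 6.12% and 0% in siARID1A and 0% and 3.08% in WT libraries. In all 6 anti-ARID1A libraries the start peak had its summit 138 to 144 bp upstream of the start, further out than the motif match printed above. The start of another transcript, LOC124904221, lies at 93909592, nearer to these summits than the GCLM start, so the peak cannot be assigned to one of them. Another recurrent site at 30.1 to 30.4 kb sits at the start of the neighbouring gene DNTTIP2, at 93879206, so part of the GCLM coverage is over that gene.

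TXNRD1 encodes cytosolic thioredoxin reductase, which recharges thioredoxin with NADPH, and is the longest member at 135 kb. With anti-ARID1A its window was covered to 63.9% and 66.4% in YTHDF1-KO, 40.8% and 42.1% in siARID1A and 72.0% and 72.4% in WT libraries, 3 separate levels. With anti-YTHDF1 the values were 7.13% and 9.87% in YTHDF1-KO, 29.1% and 14.0% in siARID1A and 19.1% and 10.3% in WT libraries. The YTHDF1-KO pair lay below WT, the nearer WT library by less than 1 percentage point. TXNRD1 had between 22 and 33 peaks per anti-ARID1A library spread along the gene.

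The peak over the first TXNRD1 start was 2732 and 3408 bp wide in YTHDF1-KO, 1384 and 2211 bp in siARID1A and 11002 and 13230 bp in WT libraries. Both WT peaks were wider than any of the others and also covered a site 3.77 to 4.49 kb into the gene, which had summits in 11 of 12 libraries. Summits also recurred at 70.6 to 71.1 kb in 8 libraries, just before the second listed start, whose upstream bases are printed above. A site at 87.7 to 88.2 kb in 9 libraries lies at the start of EID3, a gene nested in the window with its start at 104303739.

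SRXN1 encodes sulfiredoxin, which repairs over-oxidised peroxiredoxins, and is the shortest member. With anti-ARID1A it was covered to 79.9% and 81.1% in YTHDF1-KO, 53.4% and 57.1% in siARID1A and 91.7% and 87.7% in WT libraries. The conditions were again 3 separate levels. With anti-YTHDF1 it had 20.6% and 28.8% in YTHDF1-KO, 22.1% and 46.8% in siARID1A and 20.3% and 11.98% in WT libraries, so both perturbed conditions lay above WT. The lower YTHDF1-KO library exceeded the higher WT library by less than 1 percentage point, and with 3 kb instead of 10 kb on either side the mean difference turned to -5.49. Summits recurred 43 to 335 bp upstream of the start in 10 libraries.

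HMOX1 encodes haem oxygenase 1, which breaks down haem, and had the highest mean anti-ARID1A coverage of the 9 genes. In YTHDF1-KO HMOX1 had 88.6% and 78.6%, in siARID1A 63.2% and 64.3% and in WT 93.2% and 90.7% with anti-ARID1A. With anti-YTHDF1 it had 12.6% and 12.8% in YTHDF1-KO, 32.4% and 22.6% in siARID1A and 15.8% and 13.2% in WT libraries. There siARID1A lay above WT, although over the gene body alone the mean difference turned to -3.78. YTHDF1-KO lay below WT by under 1 percentage point at the nearest, and with lists cut to equal length its mean difference turned to 1.57.

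Distal enhancers with response elements, upstream of the gene, are known for mouse Hmox1. At human HMOX1, summits recurred 8.88 to 9.35 kb upstream in 8 libraries and 4.10 to 4.15 kb upstream in 4. The upstream pair and the start were bridged by 1 peak of 19880 bp in WT anti-ARID1A replicate 1. The start peak was 10446 and 9078 bp wide in YTHDF1-KO, 5359 and 5313 bp in siARID1A and 19880 and 14721 bp in WT libraries. A site 18.8 to 19.0 kb downstream of the start had summits in 8 libraries and lies next to the start of MCM5 at 35400140, so it belongs to the window of HMOX1 but not to the gene alone.

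**Figure D3:**
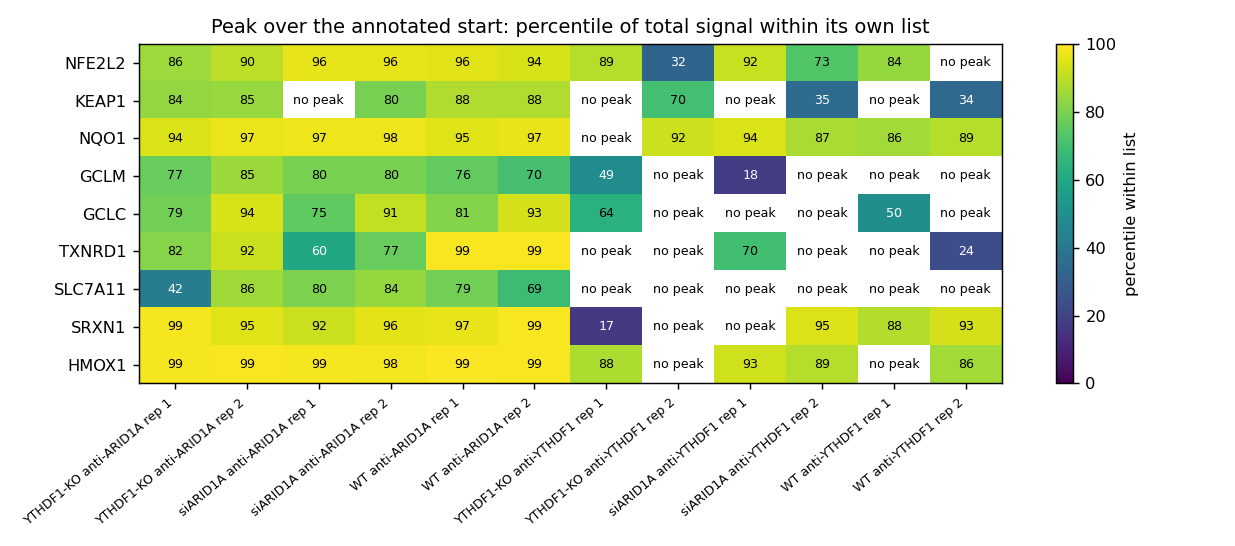
Percentile of total signal, within its own list, of the peak over the annotated start of each gene (rows) in each library (columns); white cells have no peak over the start. NQO1 start peaks rank at 86.0 to 97.5 in 11 libraries, and SLC7A11 has none in the 6 anti-YTHDF1 libraries.

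Across 15812 genes with a promoter entry, the first listed start base was covered in all 6 anti-ARID1A libraries for 42.9% and in all 6 anti-YTHDF1 libraries for 6.95%. Fisher's exact test on these start bases called 0 genes after adjustment. Of the 7 members in that set, 6 had a covered start in all 6 anti-ARID1A libraries by this measure, with KEAP1 at 5. None had it in all 6 anti-YTHDF1 libraries. For GCLM, GCLC and TXNRD1 the split was 6 against 2, with an unadjusted p of 0.0606 and an adjusted p of 0.291 in Fisher's exact test.

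**Figure D4:**
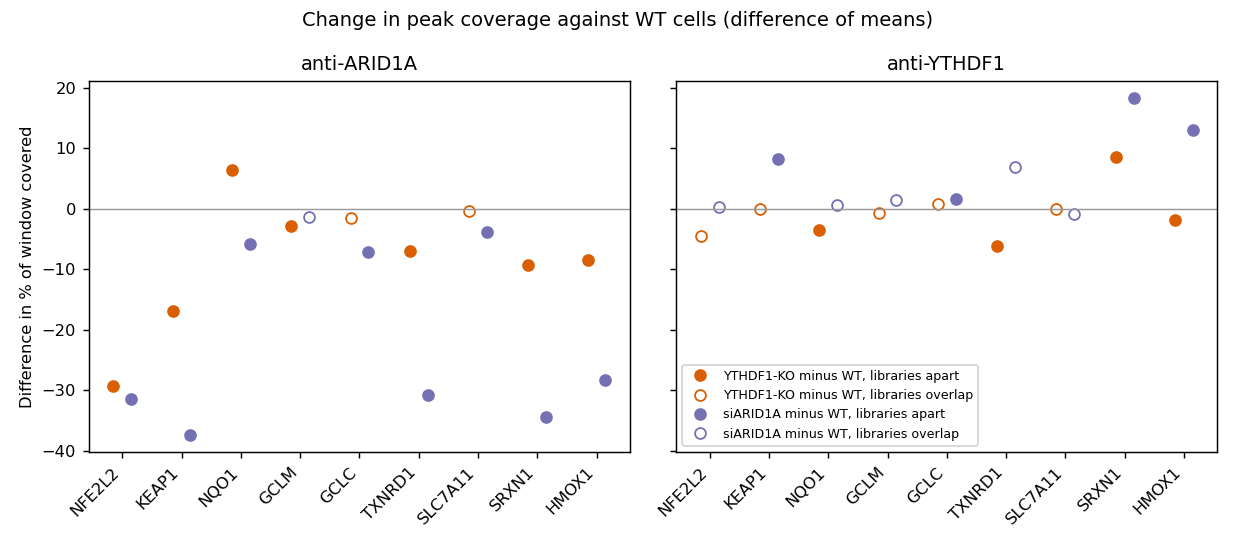
Mean percent of window covered in YTHDF1-KO (orange) or siARID1A (purple) minus that in WT cells, in percentage points, for each gene and antibody; filled points mark genes whose 2 perturbed and 2 WT libraries do not overlap. With anti-ARID1A most points lie below 0, with KEAP1 in siARID1A lowest at -37.4; with anti-YTHDF1 the siARID1A points of KEAP1, GCLC, SRXN1 and HMOX1 lie above 0, those of GCLC and HMOX1 not so over gene bodies alone.

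In siARID1A cells with anti-ARID1A, 8 of 9 members lay below WT without overlap, GCLM being the exception, and 0 lay above. The same held for 38 of the 48 other pathway genes and for 67.7% of all genes, while 1.21% of all genes lay above. The median difference was -28.2 percentage points over the members, -17.2 over the other pathway genes and -6.75 over all genes. Among genes with a peak in both WT libraries 82.1% were lower. The siARID1A lists covered less of the genome. On relative coverage 6 members lay above WT without overlap, against 27.7% of all genes, and NFE2L2 and KEAP1 lay below, against 18.9% of all genes. This ratio has a lower ceiling in the WT lists, which cover more of the genome. With anti-ARID1A, HMOX1 and SRXN1 windows were covered to 92.0% and 89.7% on average in WT, near that ceiling. TXNRD1, at 72.2% on average in WT, was further from it, but its WT ratio also had limited room to rise. For these genes a higher ratio in siARID1A cannot be read as a gain.

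The 6 that lay above were NQO1, GCLM, TXNRD1, SLC7A11, SRXN1 and HMOX1, while GCLC overlapped WT. HMOX1 was at 15.3 and 19.3 times its list's genome-wide coverage in siARID1A, against 10.3 and 12.4 in WT libraries. NQO1 was at 4.62 and 4.68 in siARID1A, against 2.59 and 3.13 in WT. NFE2L2 was at 4.85 and 5.27 in siARID1A, against 5.96 and 6.42 in WT. KEAP1 was at 4.13 and 4.75 in siARID1A, against 6.46 and 6.77 in WT. NFE2L2 and KEAP1 thus lay below WT on both scales. The mean differences of the other 7 were negative on the percent scale and positive on relative coverage, where GCLC overlapped WT; GCLM overlapped WT on the percent scale.

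In YTHDF1-KO cells with anti-ARID1A, 6 members lay below WT, against 19.9% of all genes, and 1, NQO1, lay above, against 15.1%. The 6 were NFE2L2, KEAP1, GCLM, TXNRD1, SRXN1 and HMOX1. Among genes with a peak in both WT libraries 24.2% were lower. Of the other pathway genes 18 of 48 were lower and 4 were higher, namely NFE2L1, ME1, ABCC2 and ABCC3, which are named here after their values were seen. The median difference was -7.04 percentage points over the members, -2.40 over the other pathway genes and 0 over all genes. On relative coverage 3 members, NFE2L2, KEAP1 and GCLM, lay below WT, against 16.8% of all genes.

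The YTHDF1 antibody also gave peaks in cells labelled as lacking YTHDF1, with 50774 and 46225 peaks in the YTHDF1-KO lists, against 57764 and 40562 in the WT lists. In YTHDF1-KO cells 3 members, NQO1, TXNRD1 and HMOX1, lay below WT, against 16% of all genes, and SRXN1 lay above, against 7.34%. The remaining 5 overlapped WT. All 9 members had a peak in at least 1 YTHDF1-KO anti-YTHDF1 library. The share of all genes with such a peak is not given here, so this count is not a result about the members. Peaks in both WT anti-YTHDF1 libraries were found for 11619 of 19974 genes. Of the other pathway genes 10 were lower and 1, GSS, was higher. The median difference was -0.64 percentage points over the members, -1.35 over the other pathway genes and -0.20 over all genes.

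In siARID1A cells with anti-YTHDF1 the members that stood apart were above WT. KEAP1, GCLC, SRXN1 and HMOX1 lay above WT, against 16.7% of all genes, and 0 members lay below, against 6.44%. Of the other pathway genes 12 were higher. The median difference was 1.68 percentage points over the members, 1.94 over the other pathway genes and 0.21 over all genes.

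Those 4 genes were lower with anti-ARID1A and higher with anti-YTHDF1 in siARID1A cells, a combination found in 12.9% of all genes and in 7 of the 48 other pathway genes. The reverse combination was found in 0 members and 0.0601% of all genes. In YTHDF1-KO cells SRXN1 was lower with anti-ARID1A and higher with anti-YTHDF1, as were 1.11% of all genes, and NQO1 was higher with anti-ARID1A and lower with anti-YTHDF1, as were 1.91%. Both conditions share the same WT libraries, and the difference between antibodies was not tested.

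No member gained or lost its peaks, in the sense of a peak in both libraries of 1 condition and neither of the other. With anti-ARID1A this happened in 1.62% of all genes for YTHDF1-KO and 2.51% for siARID1A against WT. With anti-YTHDF1 it happened in 3.99% for YTHDF1-KO and 3.61% for siARID1A. Among the other pathway genes CYP4F11, a cytochrome P450, lost its anti-ARID1A peaks in siARID1A cells, the only such case.

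The other pathway genes were 48 of 49 listed, covering regulators, glutathione and thioredoxin enzymes, NADPH-producing enzymes, detoxification and iron or haem genes. With anti-ARID1A 44 of them were covered more than with anti-YTHDF1, at adjusted p of 0.05 or less in the exact permutation test over all genes, and 0 were covered less. The same direction was called for 62.3% of all genes, so this count and those by role are to be read against that share. The 4 that did not pass were NFE2L1, CYP4F11, RBX1 and CES1. All 9 glutathione and thioredoxin genes, all 6 NADPH genes and all 7 iron and haem genes passed, as did 8 of 10 regulators and 10 of 12 detoxification genes. Differences were greatest for FTH1, the ferritin heavy chain, at 95.1% against 42.0%, for TKT, a transketolase, at 66.3% against 16.4%, and for ABCC3, an efflux transporter, at 82.1% against 32.7%. They were smallest for CES1 at 0.965% against 0.303%, ME1 at 1.06% against 0.277% and PIR at 1.97% against 0.862%.

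Over the 12 libraries the genes whose coverage was nearest to that of NFE2L2, by Euclidean distance between percentages, were ANXA4 at 12.5, NT5DC4 at 12.9 and TNS1 at 13.5. All 3 lie on chromosome 2, as NFE2L2 does, whose share of the covered length was lower in the YTHDF1-KO lists. Likeness here is over 12 libraries that share 6 antibody and condition groups, and it is a description only.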

How the data were processed

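Peaks came from 12 deposited lists, 1 per library. The submitters' processing notes name SEACR 1.3, deepTools 3.5.2, bedtools 2.30.0, SAMtools 1.9, Bowtie2 2.4.2 and fastp 0.23.2, with the builds GRCh38 and hg38. Neither their settings nor any part of IgG in peak calling is given in the sources used here. Each deposited peak carries its total and highest signal, which is coverage on a scale the authors set per library. Depth is therefore unknown, and no counting interval is given; the authors' signal served only to rank or filter peaks within a list.

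Groups and replicate numbers came from the sample titles. Gene positions and promoter sequences came from RefSeq tables of GRCh38.p14, with 1 position per symbol. The strands of HMOX1 and SLC7A11, which have no promoter entry, are general knowledge. An overlap of 1 bp counted as a peak in a window of 10 kb on either side. Antibodies were compared over 6 and 6 libraries by two-sided exact permutation of the mean percent covered, and by Fisher's exact test on presence, both with Benjamini-Hochberg adjustment over 19974 genes and a threshold of 0.05. Conditions were described by whether 2 and 2 libraries overlap. Scripts used Python 3.11.15, numpy 2.4.6, pandas 2.3.3, scipy 1.17.1 and matplotlib 3.10.9 and were tested on simulated data.

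All 9 members are named; other pathway genes are named when they gained or lost peaks or had the 3 greatest or 3 smallest antibody differences, and 3 genes by nearness to NFE2L2. NFE2L1, RBX1, ABCC2 and GSS fall outside this rule and were named after their values were seen, as members of counts of 5 or fewer. Members and lists were chosen with earlier results of these data known. The summit groups (gaps up to 300 bp, at least 4 libraries; 10 bp for the close groups), the start-base counts, the combinations of antibodies, the shares among genes held in WT and the chromosome 2 values were chosen after seeing the data. Relative coverage took the summed chromosome span as 3030 Mb, from the last peak or gene end per chromosome. Across 15 pairs of groups, deviations of libraries with the same replicate number correlated between -0.376 and 0.169. These values gave no clear sign that the numbers pair libraries, but cannot settle it, and the labels do not say.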

Additional observations from a re-analysis of the deposited data

Results flagged for a closer look

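For 6 combinations of gene and condition, every library of the perturbed condition lay on one side of WT with anti-ARID1A and on the opposite side with anti-YTHDF1; the difference between antibodies was not tested. In siARID1A cells the mean difference from WT, in percentage points of the window, was -37.4 with anti-ARID1A and 8.16 with anti-YTHDF1 for KEAP1. For GCLC it was -7.18 with anti-ARID1A and 1.68 with anti-YTHDF1, for SRXN1 -34.5 with anti-ARID1A and 18.3 with anti-YTHDF1, and for HMOX1 -28.2 with anti-ARID1A and 13.0 with anti-YTHDF1. On relative coverage the anti-ARID1A differences of GCLC, SRXN1 and HMOX1 were positive, at 0.291, 3.86 and 5.95, so KEAP1 was the only one of these 4 with opposite directions on that scale. In WT, SRXN1 and HMOX1 were near the ceiling of that scale with anti-ARID1A. Leaving out siARID1A anti-YTHDF1 replicate 1 gave anti-YTHDF1 differences of 5.26 for KEAP1, 30.7 for SRXN1 and 8.08 for HMOX1, and leaving out replicate 2 gave 5.95 for SRXN1. In YTHDF1-KO cells the mean difference was -9.22 with anti-ARID1A and 8.58 with anti-YTHDF1 for SRXN1. For NQO1 it was 6.40 with anti-ARID1A and -3.53 with anti-YTHDF1. On relative coverage SRXN1 with anti-ARID1A, at 10.05 and 10.51 in YTHDF1-KO, overlapped WT at 12.2 and 9.98. NQO1 with anti-YTHDF1, at 3.05 and 2.92 in YTHDF1-KO, overlapped WT at 2.20 and 7.53. Neither gene thus stood apart from WT with both antibodies on that scale. With 3 kb on either side the SRXN1 anti-YTHDF1 difference turned negative. For SRXN1 the anti-YTHDF1 difference was 4.47 without YTHDF1-KO replicate 2 and 4.41 without WT replicate 2. For NQO1 the anti-ARID1A difference was 10.6 without YTHDF1-KO replicate 1 and 2.21 without YTHDF1-KO replicate 2. Its anti-YTHDF1 difference was -6.41 without WT replicate 1 and -0.65 without WT replicate 2. The siARID1A anti-ARID1A lists covered less of the genome than the WT lists, and the siARID1A anti-YTHDF1 lists covered 79.6 Mb, against 69.5 Mb in WT. The part of that in these values was not tested, and relative coverage does not settle it.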

How the results depend on the processing

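Anti-ARID1A coverage exceeded anti-YTHDF1 coverage for all 9 members, at the threshold, with gene bodies only, with 3 kb on either side, with the stronger 50% of each list, with lists of equal length, with peaks lying at least 50% inside the window, without the siARID1A libraries and without any single library (9 to 9 members). Relative to the genome covered it held for 2 members, and NQO1 reversed to -0.123. With the replicate block, a sign-flip test over 6 pairs whose smallest p is 0.0312, it held for 0 members, each at an adjusted p of 0.0721 in the exact permutation, although all 6 pairs had the same direction; the smaller number of arrangements sets that limit. Presence of a peak called 0 members under each alternative that gives a value, including start bases alone, an alternative added after seeing the data.

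For YTHDF1-KO against WT with anti-ARID1A, members lower numbered 3 with gene bodies only, where GCLM reversed to 1.08, and 3 on relative coverage; leaving out a library gave 6 to 7 lower and 1 to 2 higher (2 without YTHDF1-KO replicate 1), and 0 were higher with at least 50% of each peak inside. With anti-YTHDF1, members higher numbered 0 with 3 kb windows, where SRXN1 reversed to -5.49, 0 with the stronger 50% and 0 with equal lists, but 2 on relative coverage and 2 with the replicate block. Members lower numbered 1 with the stronger 50% and 1 with equal lists, where HMOX1 reversed to 1.54 and 1.57. Leaving out a library gave 1 to 3 higher, 3 to 5 lower and 0 to 1 gained or lost. The most of each came without YTHDF1-KO anti-YTHDF1 replicate 2. Members higher numbered 2 without YTHDF1-KO replicate 1 and 2 without WT replicate 1. With 1 library against 2, non-overlap is easier to meet for every gene. Shares of all genes are not given for most settings here and below, so these counts are not a result about the members.

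For siARID1A against WT with anti-ARID1A, relative coverage gave 6 members higher and 2 lower; NQO1 reversed to 1.79, GCLC to 0.291, TXNRD1 to 2.33, SLC7A11 to 1.18, SRXN1 to 3.86 and HMOX1 to 5.95. SLC7A11 also reversed to 0.319 with equal lists. Leaving out a library gave 0 to 1 higher (1 without siARID1A replicate 2) and 8 to 9 lower. With anti-YTHDF1, members higher numbered 1 with gene bodies only, where GCLC reversed to -0.733 and HMOX1 to -3.78, 2 with 3 kb windows and 2 with the stronger 50%; leaving out a library gave 4 to 6 higher and 0 to 2 lower (1 without WT replicate 1 and 2 without WT replicate 2). Among other called differences, single libraries moved these by over 1.5 times, with no change of sign: with anti-ARID1A, HMOX1 in YTHDF1-KO was -13.4 without YTHDF1-KO replicate 1 and -3.37 without replicate 2, NQO1 in siARID1A was -3.69 without siARID1A replicate 1, and SLC7A11 was -1.41 without siARID1A replicate 1 and -6.35 without replicate 2. With anti-YTHDF1 in YTHDF1-KO, TXNRD1 was -1.83 without WT replicate 1 and -10.6 without replicate 2, and HMOX1 was -0.465 without WT replicate 1 and -3.10 without replicate 2. The cause was not tested. Relative coverage divides by the extent of each list, but does not remove its part where a window is nearly full.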
